A study of Mus musculus with 125 samples.

Results

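The genes described here are 8 genes of vessel growth: Apln and Aplnr, which encode the peptide apelin and its receptor, Esm1, Angpt2, Cxcr4, Pgf, Vegfc and Adm. They were taken by name out of 27998 genes in the single-cell tables, as genes known from sprouting vessels, and all 8 are accounted for below. Their RNA was counted as unique molecular identifiers (UMIs, 1 per captured RNA molecule) in brain endothelial cells of 5 ages. Open chromatin around them was read from lists of ATAC-seq peaks, taking every peak that overlapped the gene or lay within 50 kb of it. Cells were chosen by detected endothelial genes and peaks by their position, while the genes themselves were chosen by name with earlier results of these data in view, so the single-cell levels are a description, with no test.

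New vessels grow as sprouts. A tip cell leads each sprout, carries long filopodia and follows gradients of vascular endothelial growth factor (VEGF), and stalk cells behind it divide and form the tube. Apelin is made by tip cells and signals through Aplnr, a receptor coupled to inhibitory G proteins, which is carried mostly by other endothelial cells and by veins. Esm1 encodes endocan, a secreted proteoglycan of tip cells, and Angpt2 encodes angiopoietin-2, a ligand that in most settings opposes angiopoietin-1 at the receptor Tek. Cxcr4 is the receptor of the chemokine Cxcl12. Pgf encodes placental growth factor, a ligand of Flt1, and Vegfc a ligand of Flt4 and Kdr that is best known from lymphatic growth. Adm encodes adrenomedullin, a peptide read by Calcrl together with Ramp2 or Ramp3, and its transcription is raised by low oxygen.

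The single-cell libraries, 1 per age with no replicate, came from whole brain at E9.5, E12.5 and E16.5 and from cortex at P8 and in adults of 2 months. Embryonic tissue was freed with collagenase and postnatal tissue with an enzyme kit for neural tissue, and cells were then enriched with magnetic beads against CD31. The ATAC-seq libraries came from nuclei of 3 sources at E12 (E12.5 in the series' design text), namely brain, heart and trunk, and of 6 organs at P6 and in adults of 2 months, namely brain, heart, kidney, liver, lung and retina. The mice of the ATAC-seq libraries, those behind the input libraries included, had been given 0.015 mg/kg tamoxifen to switch on a GFP reporter in their vessels, and the driver of that reporter is not given in the sources used here. Libraries labelled endothelial hold nuclei of the reporter-bearing vessels and input libraries hold nuclei of the whole tissue, which include endothelial ones. The label P6 is kept for the young group, although the labels' protocol puts its collection a day later. No label says how many animals went into a library, so the spread between libraries may be technical in part.

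A cell was called endothelial when at least 3 of the 6 genes Cdh5, Pecam1, Egfl7, Esam, Tie1 and Kdr were detected, with at least 200 genes and at most 10% mitochondrial UMIs. Where 5 values follow each other below, they are in order of age, from E9.5 to adult. The endothelial cells numbered 5644, 6347, 3786, 4778 and 3154, out of 17176, 8310, 3997, 7305 and 5552 barcodes. Their median depth was 4896 to 10469 UMIs per cell, lowest in adults, and between 23250196 (adult) and 80364390 (E12.5) UMIs stood behind each pooled level. Any pair of libraries shared at most 50 barcodes. The deposited tables of E9.5, P8 and adult have a different layout from those of E12.5 and E16.5, so the steps from E9.5 to E12.5 and from E16.5 to P8 cannot be told apart from that change, and the step from E16.5 to P8 is also one of tissue and dissociation. The E16.5 file comes without a gene table and was read with the table the others share, and its own name gives a day later than its label. Doublets were not called, and cells with UMIs of at least 2 markers of another cell type, globin genes aside, made up 5.65%, 12.8%, 6.29%, 12.3% and 13.9% of endothelial cells.

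Promoter windows of 6 of the 8 genes were in the RefSeq table (GRCm38.p6), each running from 250 bases before the start to 50 after it. Those of 5 genes with 1 window each are printed because peaks within 500 bp of their starts are described further below. The 2 windows of Pgf are not printed. For Apln, Esm1 and Adm a peak within 500 bp of the start was found in fewer adult endothelial lists, and for Cxcr4 and Vegfc it was kept. Capitals mark the core of the hypoxia response element, ACGTG or GCGTG on either strand, so that CACGC is GCGTG read from the other strand.
Apln: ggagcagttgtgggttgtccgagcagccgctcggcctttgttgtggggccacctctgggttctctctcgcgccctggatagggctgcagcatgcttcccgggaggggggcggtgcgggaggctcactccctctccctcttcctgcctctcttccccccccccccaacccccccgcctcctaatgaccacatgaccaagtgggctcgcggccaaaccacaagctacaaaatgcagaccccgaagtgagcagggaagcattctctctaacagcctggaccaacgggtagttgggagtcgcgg
Esm1: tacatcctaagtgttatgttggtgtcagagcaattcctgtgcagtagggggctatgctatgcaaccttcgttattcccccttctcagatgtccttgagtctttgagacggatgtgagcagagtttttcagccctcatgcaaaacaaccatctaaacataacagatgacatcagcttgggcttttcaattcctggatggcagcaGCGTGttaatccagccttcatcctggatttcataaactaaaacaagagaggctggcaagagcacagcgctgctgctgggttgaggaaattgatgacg
Cxcr4: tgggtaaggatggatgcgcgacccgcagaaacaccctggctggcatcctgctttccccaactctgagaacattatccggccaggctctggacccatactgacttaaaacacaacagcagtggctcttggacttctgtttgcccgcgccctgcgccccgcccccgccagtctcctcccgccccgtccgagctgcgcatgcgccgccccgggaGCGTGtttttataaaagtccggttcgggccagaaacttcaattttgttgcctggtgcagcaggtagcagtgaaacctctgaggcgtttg
Vegfc: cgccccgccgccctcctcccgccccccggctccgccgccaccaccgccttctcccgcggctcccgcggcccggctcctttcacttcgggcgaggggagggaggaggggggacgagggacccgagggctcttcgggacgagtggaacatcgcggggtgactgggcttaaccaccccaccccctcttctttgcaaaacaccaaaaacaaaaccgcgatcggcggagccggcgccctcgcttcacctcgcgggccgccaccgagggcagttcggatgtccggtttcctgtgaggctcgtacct
Adm: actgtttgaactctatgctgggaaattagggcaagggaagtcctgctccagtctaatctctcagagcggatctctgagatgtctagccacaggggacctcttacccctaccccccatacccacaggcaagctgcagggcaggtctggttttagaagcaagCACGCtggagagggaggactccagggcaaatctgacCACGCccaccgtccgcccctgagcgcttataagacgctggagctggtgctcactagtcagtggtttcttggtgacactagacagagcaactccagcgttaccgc
The Apln window lies at chrX:48034804-48035103 on the minus strand, the Esm1 window at chr13:113209409-113209708 on the plus strand, the Cxcr4 window at chr1:128592250-128592549 on the minus strand, the Vegfc window at chr8:54077282-54077581 on the plus strand and the Adm window at chr7:110627407-110627706 on the plus strand. The Adm window held 2 matches to the hypoxia core, the Esm1 and Cxcr4 windows and 1 of the 2 Pgf windows held 1 each, and the Apln and Vegfc windows and the other Pgf window held 0. A match of this 5-base core is common, since 43.8% of 27025 mouse promoter windows hold at least 1. No window of the 6 genes held the FOXO motif GTAAACA, found in 3.55% of all windows, or the RBPJ motif GTGGGAA, found in 6.39%. The windows differed in base composition, with a GC content of 46.3% at Esm1 and 70.3% at Vegfc against a median of 52.7% over all windows.

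The first question was how the 8 genes change in brain endothelial cells with age. Apln, Aplnr and Angpt2 were low at E9.5, high from E12.5 to P8 and low again in adults. Cxcr4 counts followed the same course, but at P8 and in adults their level was not above that of cells without endothelial genes, and at E16.5 not clearly so. Esm1 fell earlier, Adm was highest at E16.5, and Vegfc differed by less than a fold of 2 between P8 and adult. The level of Apln, in UMIs per 1000000 UMIs of the pooled cells (CPM), was 27.4, 141, 196, 304 and 0.344. The adult value (95% interval 0.149 to 0.678) rests on 8 UMIs in 7 of 3154 cells, against 18356 UMIs in 59.6% of cells at P8. The ratio of the P8 to the adult level was 883 (448 to 2044; exact Poisson intervals, here and below, cover counting error only). Cells with none of the 6 endothelial genes, read as the background from free RNA and other cells, stood at 5.18 CPM in adults, from 3 UMIs in 176 cells. The adult endothelial level is therefore not above background, and the ratio compares counts without being a measure of adult expression.

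Aplnr, the receptor, was the most abundant of the 8 genes at each of the 3 embryonic ages. Its level was 109, 472, 363, 254 and 9.33 CPM. At E12.5 it was found in 86.3% of endothelial cells and in adults in 5.49%. Aplnr fell 27.2-fold from P8 to adult (23.8 to 31.2), which left it above the 0 UMIs of the 176 adult cells without endothelial genes. In these libraries the highest level of Apln was at P8 and that of Aplnr at E12.5. Apln was 1.55-fold and Aplnr 1.30-fold its level at E16.5, the next highest age of both. Both gaps exceed the counting interval, which does not cover differences between libraries, and neither passes a fold of 2. The gap of Apln also lies in the step that changes layout, tissue and dissociation. Because UMIs are counted at the 3′ end, levels of different genes can be set side by side without a length term, though capture may differ between genes.

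Esm1 was counted at 24.7, 38.9, 11.1, 8.01 and 0 CPM, highest at E12.5. No UMI was found in 3154 adult cells, which by a floor of 3 counts allows a share of up to 0.0951% of cells with a UMI, and by the exact binomial interval up to 0.117%. Against a floor of 3 counts in the adult library, Esm1 was at least 62.1-fold lower in adults than at P8, and the exact interval of the ratio begins at 50.3-fold. Esm1 had already fallen 3.50-fold from E12.5 to E16.5 (3.18 to 3.87), a step within 1 layout of the tables. At E16.5 and P8 its UMIs came from 3.17% and 3.35% of cells. The order of neighbouring ages turned in other sets of cells. Without cells with 2 markers of another cell type, globin genes included, which left 218 cells at E9.5 and 145 at E12.5, Esm1 was at 33.6 and 28.4 CPM, and with at most 5% mitochondrial UMIs it was at 11.7 at E16.5 and 20.4 at P8.

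Angpt2 was level from E12.5 to P8, within a fold of 2, with 5.97, 30.9, 35.7, 43.4 and 6.02 CPM. Its level at E9.5 was close to the 5.70 CPM of the cells without endothelial genes. The fall to adults was 7.21-fold (6.08 to 8.61). Cells without endothelial genes held 25.5 CPM of Angpt2 at P8, from 10 UMIs, and 3.45 in adults, from 2 UMIs. These counts are too few to place either endothelial level clearly above background. Cxcr4 stood at 2.58, 29.5, 48.1, 25.1 and 2.67 CPM and fell 9.40-fold after P8 (7.29 to 12.3). Cxcr4 is also carried by neurons and leukocytes, and the cells without endothelial genes held 39.1, 25.5 and 102 CPM at E16.5, P8 and adult age. In adults 15.9% of those cells (median depth 2463.5 UMIs) held a Cxcr4 UMI against 1.59% of endothelial cells (median depth 4896). The adult endothelial level is thus under that of those cells. Because those cells may carry Cxcr4 themselves, their level cannot decide whether the endothelial UMIs are background. The P8 level of 25.1 was not above that of those cells either, which rests on 10 UMIs. At E16.5 the level of those cells rests on 11 UMIs in 51 cells, too few to place the endothelial 48.1 CPM above it. A Cxcr4 UMI was found at P8 in 20.4% of endothelial cells (median depth 8468) and in 4.62% of those without endothelial genes (median depth 1247).

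The growth factors Vegfc and Pgf did not pass the fold of 2 between P8 and adult. Vegfc was at 31.1, 21.8, 54.3, 34.4 and 44.5 CPM, and in adults it was 1.29-fold that at P8 (1.20 to 1.39). That direction did not hold in every set of cells. The log2 ratio was -0.42 with at most 5% mitochondrial UMIs, which left 1252 of the 4778 cells at P8, -0.33 with each cell weighing equally and -0.15 without cells with 2 markers of another cell type, globin genes included. In the cells without endothelial genes it lay between 0 and 12.8 CPM. Pgf was the scarcest throughout the embryo, at 1.22, 8.14, 2.71, 3.33 and 5.16 CPM. Cells without endothelial genes held more Pgf at every age but E12.5, up to 28.1 CPM at P8. At E12.5 they held 5.44 CPM, which rests on 21 UMIs. Without cells with 2 markers of another cell type, globin genes included, 145 cells were left at E12.5. The endothelial level in them was 2.11 CPM, from too few UMIs to fix a level. No Pgf level is therefore shown to be above background. The adult Pgf level was 1.55-fold that at P8, but without cells that carry 2 markers of another cell type, globin genes aside, it was lower than at P8, at 0.354 against 1.37 CPM (a log2 ratio of -1.95), so no direction can be given for Pgf.

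Adm, like Cxcr4 and Vegfc, was highest at E16.5, but for Vegfc this order turned in other sets of cells. With at most 5% mitochondrial UMIs Vegfc was at 55.3 CPM at E16.5 and 81.2 at P8. Without cells that carry 2 cell cycle markers it was at 74.1 at E9.5 and 62.0 at E16.5. The level of Adm was 9.66, 39.5, 191, 22.5 and 12.9 CPM, and 59.6% of endothelial cells held a UMI at E16.5. The rise from E12.5 to E16.5 was 4.82-fold (4.62 to 5.02) and the drop from E16.5 to P8 8.45-fold (7.98 to 8.96). In cells without endothelial genes Adm stayed between 2.55 and 7.10 CPM at all 5 ages.

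Counted by a fold of 2 among genes with at least 5 CPM at 1 of both ages, 6 of the 8 genes were higher at E12.5 than at E9.5 and 0 lower, in a step in which 20.1% of 9859 genes were higher and 9.23% lower. Pgf did not pass without cells with 2 markers of another cell type, globin genes included, which leaves 5 genes. Its levels there were 0.622 CPM in 218 cells at E9.5 and 2.11 CPM in 145 cells at E12.5. Both counts were under the floor of 3. The log2 ratio of 0.76 is set by that floor and cannot decide whether Pgf rose in those cells. In the same step 9 endothelial markers, those of the gate among them, went from a sum of 3020 to 5888 CPM. Of these 4 were past the fold of 2, so a rise is not particular to the 8 genes. From E12.5 to E16.5, 2 genes were higher (Adm, Vegfc) and 2 lower (Esm1, Pgf), against 8.39% and 7.9% of 9854 genes. From E16.5 to P8, 0 of the 7 tested were higher and 1 (Adm) lower, against 11.6% and 7.93% of 9906 genes. From P8 to adult, 0 of 8 were higher and 5 lower (Apln, Aplnr, Esm1, Angpt2, Cxcr4), against 14.5% and 11.2% of 10232 genes. The median log2 ratio of the 8 genes in this last step was -3.04, against 0.08 for all genes. Without cells that carry 2 cell cycle markers the adult count was 6, Adm being added at a log2 ratio of -1.10, and Vegfc no longer passed between E12.5 and E16.5, at a log2 ratio of 0.69. Pericyte markers summed to 692 CPM at P8 and 1358 in adults, and cell cycle markers to 333 and 3.83, moving in the same step. Without cells that carry other cells' markers the log2 ratios of the 5 genes were -10.02, -4.74, -5.36, -3.15 and -3.81, in the order named.

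**Figure D1:**
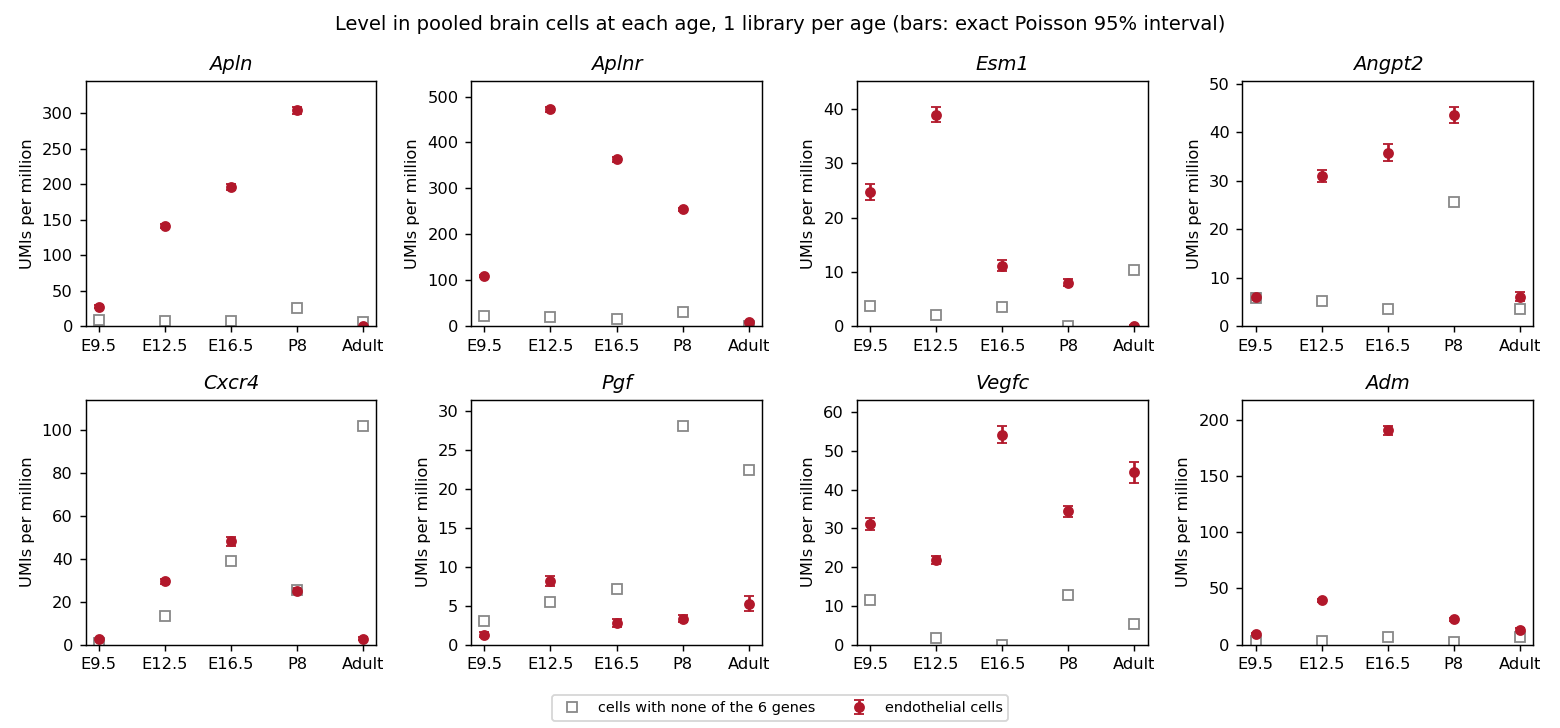
Level of each gene in CPM (vertical axis, linear from 0) in the pooled endothelial cells of 1 library at each age (red points, bars for the exact Poisson 95% interval) and in cells with none of the 6 endothelial genes (grey squares). Apln climbs to 304 at P8 and is at 0.344 in adults, Adm stands out at E16.5 with 191, and adult Cxcr4 lies far under the grey square at 102.

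Partners of the 8 genes were followed as a list of 20 genes, mostly ligands, receptors and proteins that bind or process them. From P8 to adult 7 of the 15 tested were higher and 0 lower, against 14.5% and 11.2% of all genes. Angpt2's receptor Tek was at 194 CPM at P8 and 307 in adults, which did not pass the fold of 2, and the phosphatase Ptprb, which restrains Tek, rose from 774 to 2087. Angpt1, the other angiopoietin, which pericytes are known to make, was at 0.400 at E16.5 and 12.3 in adults, beside the rise of pericyte markers given above, whose part in it was not tested. Cxcl12, the ligand of Cxcr4, was at 5.75, 56.4, 429, 533 and 2083 CPM, past the fold of 2 in each step but that from E16.5 to P8. Ackr3, the second receptor of Cxcl12, was at 4.10 at E16.5, 72.1 at P8 and 106 in adults. Flt1, the receptor of Pgf, rose from 203 at E9.5 to 3500 in adults, passing the fold of 2 in the step from P8 with 1229. The receptors of adrenomedullin were steady, with Calcrl between 48.97 and 63.6 CPM and Ramp2 between 904 and 1752, while Ramp3 was at 5.05 at P8 and 15.4 in adults. Nrp1 was between 184 and 422, Nrp2 between 69.7 and 120 and Flt4, the receptor of Vegfc, between 40.1 and 80.3. Other VEGF ligands were low, with Vegfa at most 4.79 and Figf (VEGF-D) at most 6.24, and Vegfb fell from 45.1 at E9.5 to 12.3 at E12.5. Apela, the second ligand of Aplnr, was at most 0.722 CPM, and Ccbe1 and Adamts3, which process the Vegfc protein, were at most 0.175. Agtrap, which binds an angiotensin receptor and is neither a ligand nor a receptor of the 8 genes, went from 13.9 at P8 to 28.6 in adults and is 1 of the 7 counted. Ramp1 was at most 4.53.

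Of the genes of apelin signalling 4 of 8 tested were higher in adults than at P8, among them Nos3 (82.3 and 170 CPM), and 1 was lower, Gnai1 (24.6 and 8.90), against 14.5% and 11.2% of all genes. The 3 most abundant were Gnai2, an inhibitory G protein (1677 and 1417), Klf2 (1149 and 1916) and Nos3, which makes nitric oxide. Of 15 other tip cell genes 13 were higher at E12.5 than at E9.5, where 20.1% of all genes were. At P8 7 were lower than at E16.5, beside 7.93% of all genes, and in adults 9 were lower than at P8, beside 11.2%, with 0 higher in either step. Marcksl1, an actin-binding protein, was at 467, 1110, 367, 47.1 and 2.24 CPM. Fscn1, which bundles actin in filopodia, was at 254, 697, 483, 193 and 0.774, and Lxn, a carboxypeptidase inhibitor, at 149, 370, 226, 152 and 9.29. Those not lower in adults included Pdgfb, the growth factor that draws pericytes, at 128 at P8 and 240 in adults, and Robo4 at 77.9 and 117. Of the hypoxia response list 3 of 9 were higher at E16.5 than at E12.5, beside 8.39% of all genes, and 6 of 9 were lower at P8 than at E16.5, beside 7.93%. Ankrd37, at 23.4, 62.1, 426, 263 and 55.0 CPM, rose in the first of these steps as Adm did and did not pass the fold of 2 in the second. Ldha, a lactate dehydrogenase and the most abundant of that list from E9.5 to P8, was at 1420, 832, 1637, 477 and 316. Ndrg1 was at 2.78, 15.0, 45.4, 17.2 and 860, above Ldha in adults.

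The cells of each age were then divided by markers of vessel type, to see where along the vessel bed each gene lies. Cells with UMIs of at least 2 of 9 arterial markers and under 2 of 8 venous ones were set against the opposite. There were 503 to 1217 arterial-marked and 582 to 1918 venous-marked cells per age. Cells with under 2 markers of either list were kept as a further class. Levels in cells with at least 2 markers of each list are not given here. These classes are ranges along a count of markers and not cell types, since 980 to 2894 cells per age held 1 or 2 arterial markers. Vegfc was at 87.8, 42.8, 108, 79.3 and 49.1 CPM in arterial-marked cells and at 5.68, 5.01, 11, 6.86 and 6.78 in venous-marked cells, a gap past a fold of 2 at every age. Cxcr4 showed the same order, at 71.1, 87.2 and 62.0 in arterial-marked and 3.93, 21.9 and 12.5 in venous-marked cells at E12.5, E16.5 and P8. Esm1 too was higher in arterial-marked cells, at 57.0, 91.0, 38.7 and 23.7 against 9.23, 15.4, 2.78 and 3.12 from E9.5 to P8, and in adults it had 0 UMIs in either class.

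Aplnr was ordered the other way, at 54.0, 334, 201, 126 and 0.683 CPM in arterial-marked and 153, 594, 485, 307 and 11.8 in venous-marked cells. Of the classes given here, Apln was most abundant in cells with under 2 markers of either list. This held at E16.5 (370, against 195 arterial and 205 venous) and at P8 (458, against 164 and 313). Angpt2 shared that place at E16.5, at 80.1 against 50.0 and 28.7, and at P8, at 66.1 against 44.8 and 37.6. Cells with few markers were also the shallowest, with a median of 5815 UMIs at E16.5 and 5777 at P8 against 6905 and 6799 in arterial-marked cells, and the part of depth in this order was not tested. By a fold of 2, 3, 5, 3, 3 and 1 of the 8 genes were higher in arterial-marked cells, where 3.47%, 3.16%, 4.76%, 4.33% and 5.44% of all genes with at least 5 CPM in either class were. In venous-marked cells 1, 0, 1, 1 and 2 of the 8 were higher, beside 1.54%, 1.32%, 3.44%, 3.65% and 3.02% of all genes. With markers counted after each cell was thinned to 2000 UMIs the arterial counts at E12.5 and in adults were both 3. The thinned levels of Vegfc were 142, 120, 238, 226 and 104.6 in arterial-marked and 16.2, 8.29, 19.7, 16.4 and 8.24 in venous-marked cells.

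The genes also differed between cells with and without cell cycle markers. At P8, Apln was at 161 CPM in cells with UMIs of at least 2 of 5 cell cycle markers and at 368 in the rest, Angpt2 at 12.3 and 57.5 and Cxcr4 at 6.32 and 33.5. Adm at E16.5 was at 104 and 224. Aplnr ran in the opposite direction, at 424 in marked and 339 in other cells at E16.5 and at 305 and 231 at P8. Marked cells were deeper, with a median of 23910 UMIs at P8 against 7755, and the part of depth in these differences was not tested. They made up 85.1% of endothelial cells at E9.5 and 0.0317% in adults.

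**Figure D2:**
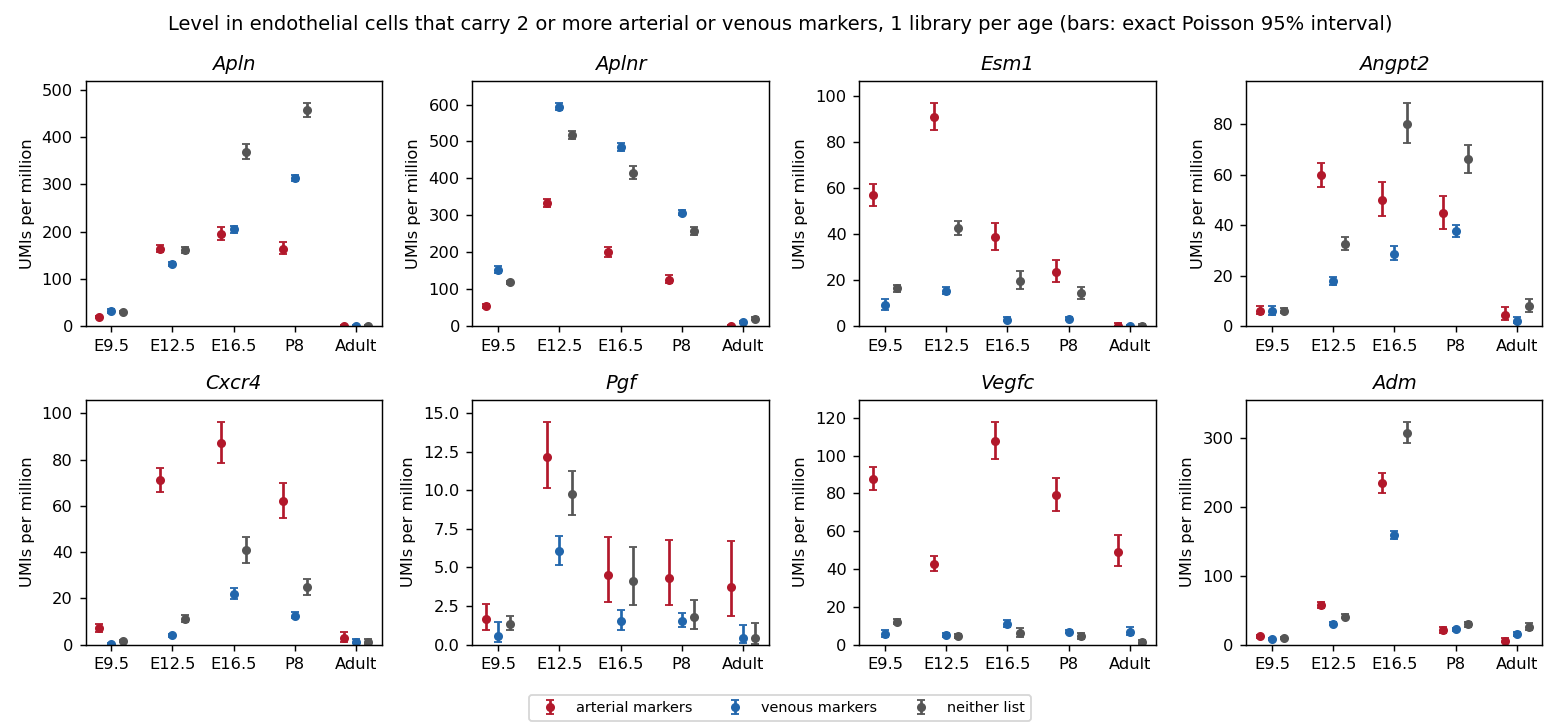
Level of each gene in CPM (vertical axis, linear from 0) by age, with bars for the exact Poisson 95% interval. The classes are cells with at least 2 markers of the arterial list only, of the venous list only, or of neither. Cells with at least 2 markers of both lists are not drawn. Vegfc, Cxcr4 and Esm1 are highest in the arterial-marked cells of the embryonic ages, and Aplnr in the venous-marked cells.

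The next comparison asked which of the genes are found in the same cell. Each cell was thinned to 2000 UMIs, which removes differences in depth, and the number of cells with both genes was divided by the number expected if they were unrelated. At E12.5, 75 cells held both Esm1 and Angpt2 where 15.8 would be expected, a ratio of 4.76. Angpt2 and Adm met in 74 cells against 18.4 expected (4.02), and Cxcr4 and Vegfc in 40 against 11.6 (3.44). With all UMIs these 3 ratios were 2.36, 2.34 and 2.74, in the same direction and smaller. The ratio of Apln with Angpt2 was 2.43, 2.51 and 2.01 at E12.5, E16.5 and P8, and that with Adm 2.20, 1.65 and 1.76. Ligand and receptor met close to the number for unrelated genes, since Apln and Aplnr shared 770, 459 and 617 cells against 716, 453 and 570 (ratios of 1.08, 1.01 and 1.08).

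Vegfc kept apart from the apelin pair. The ratio for cells with Apln and Vegfc was 0.495, 0.183 and 0.242 at those ages, and for cells with Aplnr and Vegfc 0.528, 0.231 and 0.258. With all UMIs the first was 0.742, 0.549 and 0.604 and the second 0.704, 0.595 and 0.662, nearer to the number for unrelated genes. Esm1 and Adm met at a ratio of 2.56 at E12.5 (58 cells against 22.7 expected) and of 0.163 at E16.5 (2 against 12.3, from 45 cells with Esm1). With all UMIs these ratios were 1.75 and 0.880 (63 cells against 71.6), so the low value at E16.5 depends on the thinning as well. Among pairs with at least 5 expected cells a ratio of 1.5 was reached by 10 of 26, 5 of 19 and 6 of 20, and by 3 of 10 at E9.5, while in adults 0 pairs had that many. Of all pairs of genes with at least 5 expected cells, which were not matched to the 8 genes in abundance, 3.19%, 3.0%, 3.08%, 2.95% and 2.93% reached it in order of age. These values describe cells of 1 library per age and carry no test.

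**Figure D3:**
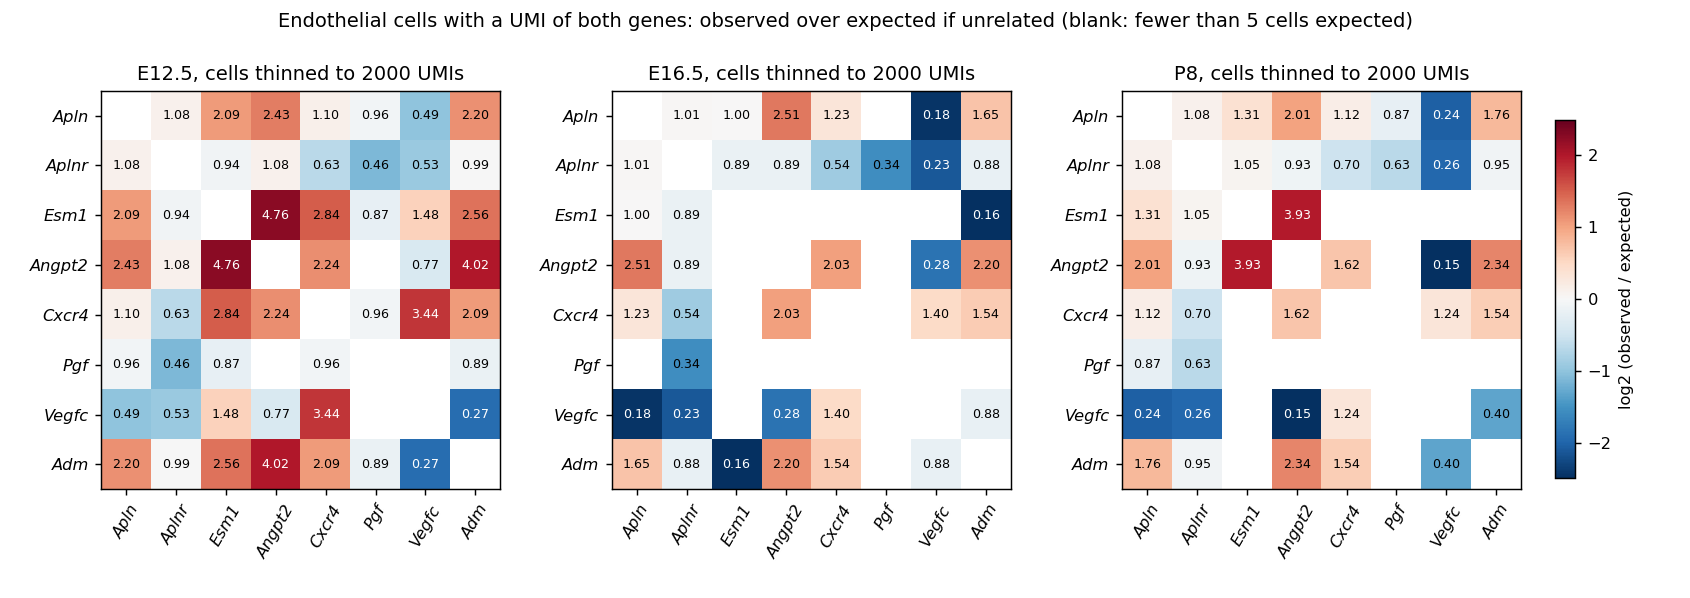
Number of endothelial cells with a UMI of both genes over the number expected if they were unrelated, for each pair at E12.5, E16.5 and P8, after thinning to 2000 UMIs (printed ratios, colour on a log2 scale, blank where fewer than 5 cells are expected). Angpt2 meets Apln, Esm1 and Adm above the number for unrelated genes, and the Vegfc row is low against Apln and Aplnr.

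Genes most like Apln were ranked by the lowest ratio, over the 4 libraries from E9.5 to P8, of their CPM in cells with an Apln UMI to that in cells without one. Of 9867 genes ranked, the highest were Fam57b with a lowest ratio of 2.08, Adm with 1.94, the potassium channel genes Kcne3 with 1.90 and Kcnj15 with 1.83, and Nlrc3 with 1.78. Kcna5 (1.72), another potassium channel gene, Lalba (1.66), Spsb1 (1.64), Ctsw (1.61) and RP24-416M6.5 (1.596) completed the first 10. Among the other genes of this report Aplnr ranked 408, Angpt2 1995, Esm1 9274 and Vegfc 9855, with Vegfc between 0.143 and 0.457 in every library. Angpt2 owed its rank to E9.5, at 0.98, while its ratios at E12.5, E16.5 and P8 were 5.59, 7.84 and 4.85. Cells with Apln were deeper, with a median of 10013.5 UMIs against 6825 at P8, and Cxcr4 and Pgf had too few UMIs to be ranked.

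For Aplnr the ranking covered all 5 libraries and 7437 genes. Lhx6, a homeobox factor, came first with a lowest ratio of 2.28 and 12.8 at E12.5, followed by Nr2f2, the transcription factor of venous identity and itself one of the venous markers, with 1.89. Gdap10 (1.77), C77370 (1.65), Adamtsl2 (1.53), Ripply3 (1.504), Reep1 (1.496), Fam167b (1.48), Zfp503 (1.47) and Flrt2 (1.40) came next. Fam167b stood at 98.5 in adults, where 173 cells held an Aplnr UMI. Vegfc, with too few UMIs in such cells to be ranked, lay between 0.0904 and 0.266 in the 5 libraries.

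Open chromatin was then compared between endothelial and input libraries, to see whether regions near the 8 genes are open more often in endothelial nuclei. A peak list held 19464 to 144197 peaks, and adult endothelial lists were the shortest, with a median of 36755.5 against 69067.5 at P6 and 101233 at E12. The number of peaks within 50 kb of each of 21883 protein-coding genes was therefore divided by the length of the list and scaled to a list of 74218 peaks. In such bulk libraries fewer endothelial nuclei and fewer open sites per nucleus cannot be told apart. Differences were tested with limma on the log2 scale with 0.5 added, as the mean over organs, and called at an adjusted p under 0.05 (Benjamini-Hochberg, over all genes) and a difference of 1.5-fold. Of 19 partners tested, 7 were called higher in endothelial libraries at P6, with Tek at 1.81 on the log2 scale and Flt1 at 1.30, and 4 lower, with Apela at -1.08 and Angpt1 at -0.89.

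At P6 the libraries labelled endothelial held more peaks near Apln, Aplnr, Esm1 and Adm. Apln had 4 to 15 peaks per endothelial list (median 11, 14 libraries) and 0 to 12 per input list (median 8.5, 16 libraries). Scaled to equal lists they were 11.3 ± 2.26 and 6.23 ± 2.15 (SD), and the groups overlap on either scale. The log2 difference was 0.99 (SE 0.16, limma adjusted p 1.66e-06), with endothelial higher in 6 of 6 organs, from 0.47 in lung to 1.81 in liver. Aplnr had 7 to 18 peaks (median 14) against 3 to 17 (median 11.5), and differed by 0.88 (SE 0.14, limma adjusted p 2.71e-06) in the same direction in 6 of 6 organs. Esm1 had 1 to 9 (median 5) against 1 to 9 (median 4) and differed by 0.72 (SE 0.13, limma adjusted p 1.33e-05), higher in 5 of 6 organs and lower in lung. Adm had 3 to 14 (median 9) against 4 to 12 (median 8) and differed by 0.61 (SE 0.12, limma adjusted p 9.54e-05), higher in 6 of 6 organs. The Adm call was lost in 7 of 30 refits that left out 1 library, down to 0.54, and turned to -0.027 when the window was 10 kb.

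The 4 of 8 genes higher at P6 and 0 lower stand beside 7.87% of all genes called higher and 7.9% lower. Angpt2 differed by 0.08 (limma adjusted p 0.583), Cxcr4 by -0.34 (0.0806), Pgf by 0.33 (0.0414, under the size asked for) and Vegfc by -0.08 (0.746). In 5 organs all libraries of both kinds were named with 1 kind of aligned file, and over these the mean difference was 0.98 for Apln, 0.88 for Aplnr, 0.76 for Esm1 and 0.55 for Adm. Without scaling by list length the median of all genes moved from 0.17 to -0.22, the call counts to 183 genes higher and 4202 lower, and 0 of the 8 genes were called higher and 1 lower, Apln being at 0.60, while each gene's distance from that median is the same by construction.

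In adults Aplnr showed the widest gap of the 8. Endothelial lists held 4 to 12 peaks near it (median 9, 12 libraries) and input lists 1 to 14 (median 5.5, 10 libraries), and scaled to equal lists the means were 20.3 ± 7.97 and 7.19 ± 4.93, with overlapping groups. The log2 difference was 1.56 (SE 0.17, limma adjusted p 2.8e-10), higher in 6 of 6 organs and kept without scaling at 0.97. The adult brain, where Aplnr RNA in endothelial cells was at 9.33 CPM, was among those organs. Vegfc was also called, at 0.81 (SE 0.22, limma adjusted p 0.00297), from 0 to 7 peaks against 0 to 4, higher in 5 of 6 organs. This call was lost without the only adult heart input library, at 0.54, and the direction turned to -0.23 with peaks of at least 4-fold enrichment only. The 2 genes higher and 0 lower compare with 16% of all genes higher and 7.99% lower. That share higher is in part built in, because 0.5 was added before the division by list length. Every gene moves by -0.59 when the scaling is left out, so a gene with 0 peaks in all lists passes the size asked for by scaling alone. Without scaling the median of all genes went from 0.23 to -0.36, and 176 genes were called higher and 6191 lower, 1 gene of the 8 in each direction. Esm1 missed the size asked for at 0.57 (SE 0.15, limma adjusted p 0.00292), with a range from -1.02 in lung to 1.93 in kidney, and was called in 7 of 22 refits without 1 library, at up to 0.79 without the brain input library 1. Over the 3 organs with 1 kind of file in both arms, Aplnr differed by 1.63 and Vegfc by 1.26.

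Between ages, adult endothelial libraries held fewer peaks near Apln than P6 ones, 0 to 7 (median 4) against 4 to 15 (median 11). Scaled to equal lists the fit gave 6.98 and 11.1 peaks, a log2 difference of -0.63 (SE 0.17, limma adjusted p 0.00132), lower in 5 of 6 organs and widest in lung at -2.16. The call was lost without the brain adult endothelial library 1 or the lung adult endothelial library 2, at -0.52 at the least. Over the 4 organs with 1 kind of file the mean was -0.75. Cxcr4 had 0 to 5 peaks (median 1) against 1 to 8 (median 6), and at -0.56 (SE 0.17, limma adjusted p 0.00382) it just missed the size asked for and was called in 8 of 26 refits without 1 library. Pgf differed by -0.47 (SE 0.14, limma adjusted p 0.00506) and Adm by 0.46 (SE 0.13, limma adjusted p 0.00294), both under that size. The 0 genes higher and 1 lower compare with 25% of all genes called higher and 6.02% lower. That share higher is in part built in, because 0.5 was added before the division by list length. Every gene moves by -0.88 when the scaling is left out, so a gene with 0 peaks in all lists passes the size asked for by scaling alone. Without scaling the median of all genes fell from 0.32 to -0.56, 24 genes were called higher and 10401 lower, and 7 of the 8 were called lower.

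From E12 to P6, over brain and heart, 0 of the 8 genes were called by limma, against 4.92% of all genes higher and 4.35% lower. At an unadjusted p under 0.05 there were 2, Esm1 at -0.58 (SE 0.21, limma adjusted p 0.0559) and Pgf at 0.48 (SE 0.22, limma adjusted p 0.131). Apln differed by 0.49 and Vegfc by -0.50, neither past the test. Without the heart E12 endothelial library 3, whose list was the shortest of its group, Esm1 and Vegfc were called lower, at -0.58 and -0.77 (limma adjusted p 0.0458 and 0.0303). Esm1 was also called without the brain P6 endothelial library 3, at -0.73. Without scaling 13 of all genes were called higher and 2296 lower, with the median moving from 0.20 to -0.34. Comparisons between ages share their P6 endothelial libraries with the comparison against input and are not independent of it.

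**Figure D4:**
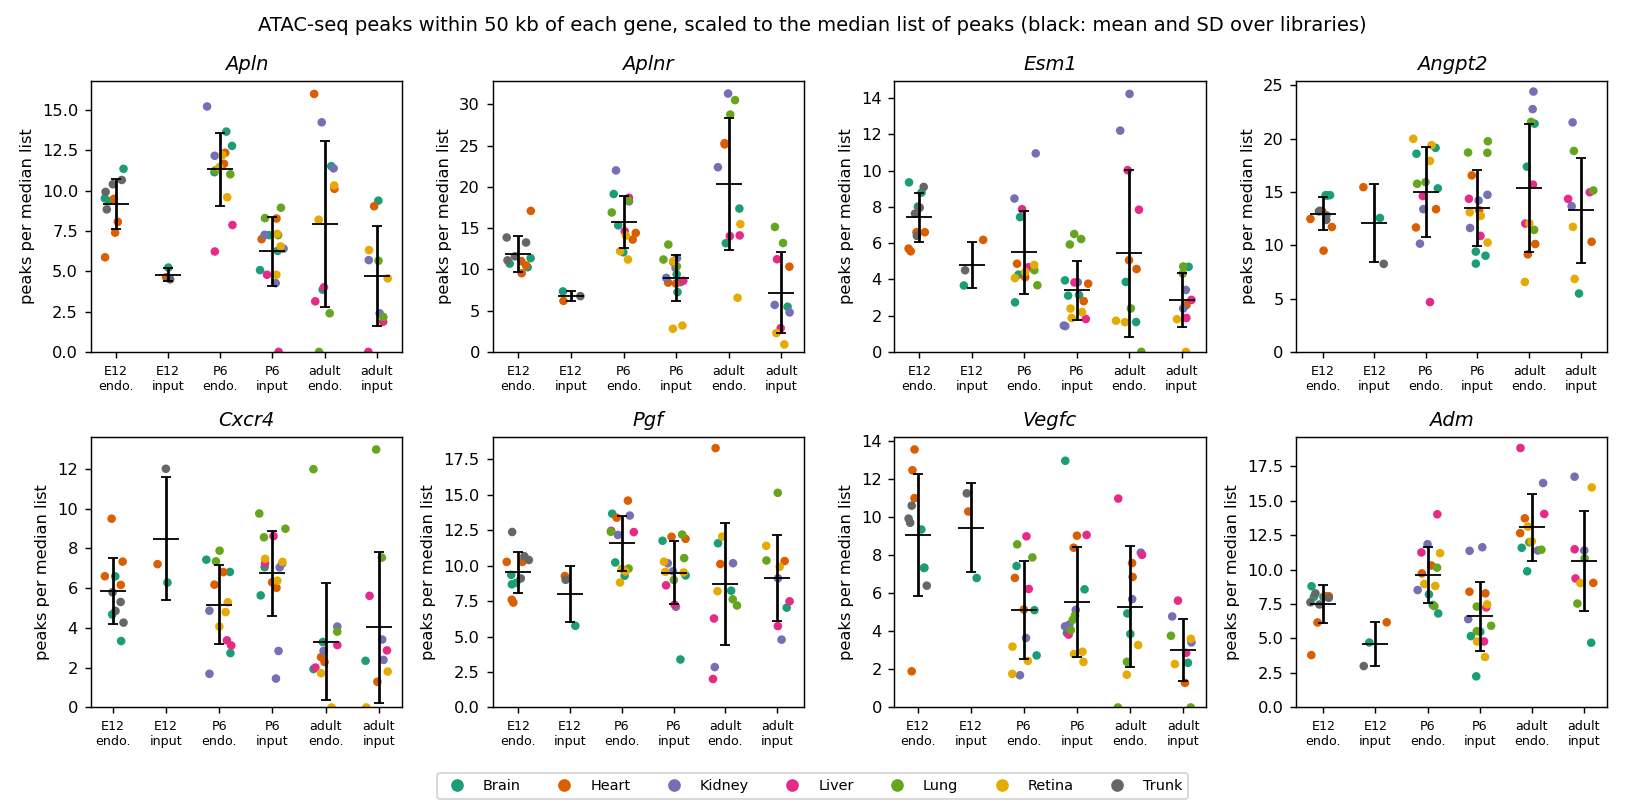
Peaks within 50 kb of each gene, scaled to a list of 74218 peaks (vertical axis, linear from 0), with 1 point per library coloured by organ and black marks for the mean and SD, in endothelial (endo.) and input libraries of E12, P6 and adult mice. Most Apln points of the endothelial libraries lie above those of input at P6, with some overlap, and in adults they spread down to 0. Most adult Aplnr points of endothelial libraries lie above those of input, also with overlap.

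The gene lists were read beside the shares of all genes, 7.87% higher and 7.9% lower in endothelial than input libraries at P6, and 16% and 7.99% in adults. The shares higher in comparisons with adult endothelial lists are in part built in by the scaling, as described above. Of the 19 partners 8 were higher and 3 lower in adults. The 7 higher at P6 were Tek, Flt1, Ptprb, Flt4, Calcrl, Ramp2 and Ramp3, receptors or their partners, and the 4 lower were Ramp1, Angpt1, Cxcl12 and Apela. Of the 15 other tip cell genes 3 were higher at P6 (Pdgfb, Dll4, Fscn1) and 7 in adults, with 1 lower, Igfbp3. For apelin signalling 2 of 10 were higher at both ages, Arrb2 and Klf2, with 1 lower, Mme, and for the hypoxia response 2 of 10 were higher at both ages with 0 lower. In lists of 10 genes these adult counts are close to the share of all genes. Between adult and P6 endothelial libraries 0 of the 15 tip cell genes were higher and 1 lower, against 25% and 6.02% of all genes. Of the partners 0 were higher and 2 lower (Ccbe1, Adamts3), of apelin signalling 0 in either direction, and of the hypoxia response 2 of 10 were higher (Ankrd37, Pgk1) and 0 lower. Fscn1 went from 193 CPM at P8 to 0.774 in adults in brain endothelial RNA. In peaks, adult against P6, it differed by 0.15 as the mean over 6 organs (SE 0.15, limma adjusted p 0.388). These values differ in tissue and in the young age, and no value for brain peaks alone is given.

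Where the peaks lie differed by gene. A peak within 500 bp of the Apln start was found in 11 of 11 endothelial lists at E12, 13 of 14 at P6 and 4 of 12 in adults, and in input lists in 3 of 3, 14 of 16 and 5 of 10. The Esm1 start was more endothelial, with 11 of 11, 12 of 14 and 3 of 12 endothelial lists against 3 of 3, 4 of 16 and 1 of 10 input lists. The 3 adult lists were both of kidney and 1 of 2 of lung. The Cxcr4 start, in contrast, kept its peak in 11 of 12 adult endothelial lists, as did the Vegfc start, with 13 and 14 of 14 at P6. Over all ages, 7 of the 8 genes, Cxcr4 and Vegfc among them and Esm1 not, also had a peak at a start or end in most input lists. The kept peaks of Cxcr4 and Vegfc are thus not particular to endothelial lists. Adm had a start peak in 8 of 12 adult lists and 12 of 14 at P6. For Pgf the upstream of its 2 starts had a peak in 9 of 11 lists at E12, 10 of 14 at P6 and 0 of 12 in adults.

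Angpt2 and Aplnr have no promoter entry, so only their ends are given. The upper end of Angpt2 (chr8:18690263-18741562) had a peak in 11 of 12 adult endothelial lists against 3 of 10 adult input lists, and its lower end in 9 of 14 P6 endothelial lists against 4 of 16. The lower end of Aplnr (chr2:85136360-85139923) had a peak in 14 of 14 P6 endothelial lists, 6 of 12 adult ones and 11 of 16 P6 input lists. Adult endothelial lists are also the shortest, and the part of list length in a missing peak was not tested.

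Outside the starts, peaks that overlapped between libraries were joined into regions, 29 around Apln, 37 around Aplnr, 30 around Esm1, 75 around Angpt2, 42 around Cxcr4, 35 around Pgf, 58 around Vegfc and 33 around Adm. Regions were picked by the widest gap in the share of libraries, endothelial over input or young (E12 and P6) over adult endothelial. For each gene at least 1 of these is named as a description, and for some genes not both. For Apln the most age-bound region was chrX:48043875-48044716, 9022 bp beyond its start, with a peak in 11 of 11 endothelial lists at E12, 13 of 14 at P6 and 1 of 12 in adults, and in 5 of 29 input lists. Its most endothelial region, chrX:47998390-47999071, lies 26075 bp past the other end of the gene, with 8 of 11, 13 of 14 and 4 of 12 lists, the 4 adult ones being both of heart and both of kidney. A neighbour at chrX:48053750-48055256 had a peak in 11 of 12 adult endothelial lists, 18897 bp beyond the start, and in 24 of 29 input lists. No other protein-coding gene lies within 50 kb of Apln or Cxcr4. The other windows hold neighbours, namely Lrrc55 near Aplnr, Gzmk near Esm1, Mcph1 near Angpt2, Gm33153 near Vegfc and Sbf2 near Adm. Near Pgf lie Dlst, Rps6kl1 and Eif2b2. Whether a region in these windows belongs to the named gene or to a neighbour was not tested.

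Among the regions named, 1 near Aplnr had the widest gap between young and adult lists. Over the whole window of Aplnr, scaled to equal lists, adult against P6 differed by 0.27 (SE 0.15, limma adjusted p 0.115), higher in 4 of 6 organs. The region chr2:85167527-85168148, 27604 bp from the gene, had a peak in 25 of 25 young endothelial lists, from every organ, in 0 of 12 adult ones and in 6 of 29 input lists. A second region at chr2:85178097-85178944 was found in 7 of 11 lists at E12, 13 of 14 at P6 and 6 of 12 in adults. For Cxcr4 1 region had both the widest gaps, chr1:128574810-128575639, 12560 bp past the end of the gene, with 11 of 11 lists at E12, 12 of 14 at P6, 0 of 12 in adults and 3 of 29 input lists.

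Esm1 had a region at chr13:113169950-113170684 in 10 of 11 lists at E12, 6 of 14 at P6 and 4 of 12 in adults, the adult ones from kidney and liver, and in 1 of 29 input lists. Angpt2 had one at chr8:18790039-18791256, inside Mcph1, in 11 of 11, 14 of 14 and 6 of 12 endothelial lists and 4 of 29 input lists, the widest such gap among the 8 genes. A second, chr8:18756711-18757572, was in 10 of 11, 8 of 14 and 0 of 12 endothelial lists. For Vegfc the region chr8:54164727-54165401, inside the gene, was in 10 of 11 lists at E12, in 3 of 14 at P6, 2 of these from heart, and in 2 of 12 in adults, both from heart. For Pgf, chr12:85185543-85186806 was in 11 of 11, 11 of 14 and 2 of 12 endothelial lists, the adult ones both from heart. For Adm, chr7:110592147-110592517, inside Sbf2, was in 18 of 37 endothelial and 0 of 29 input lists.

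**Figure D5:**
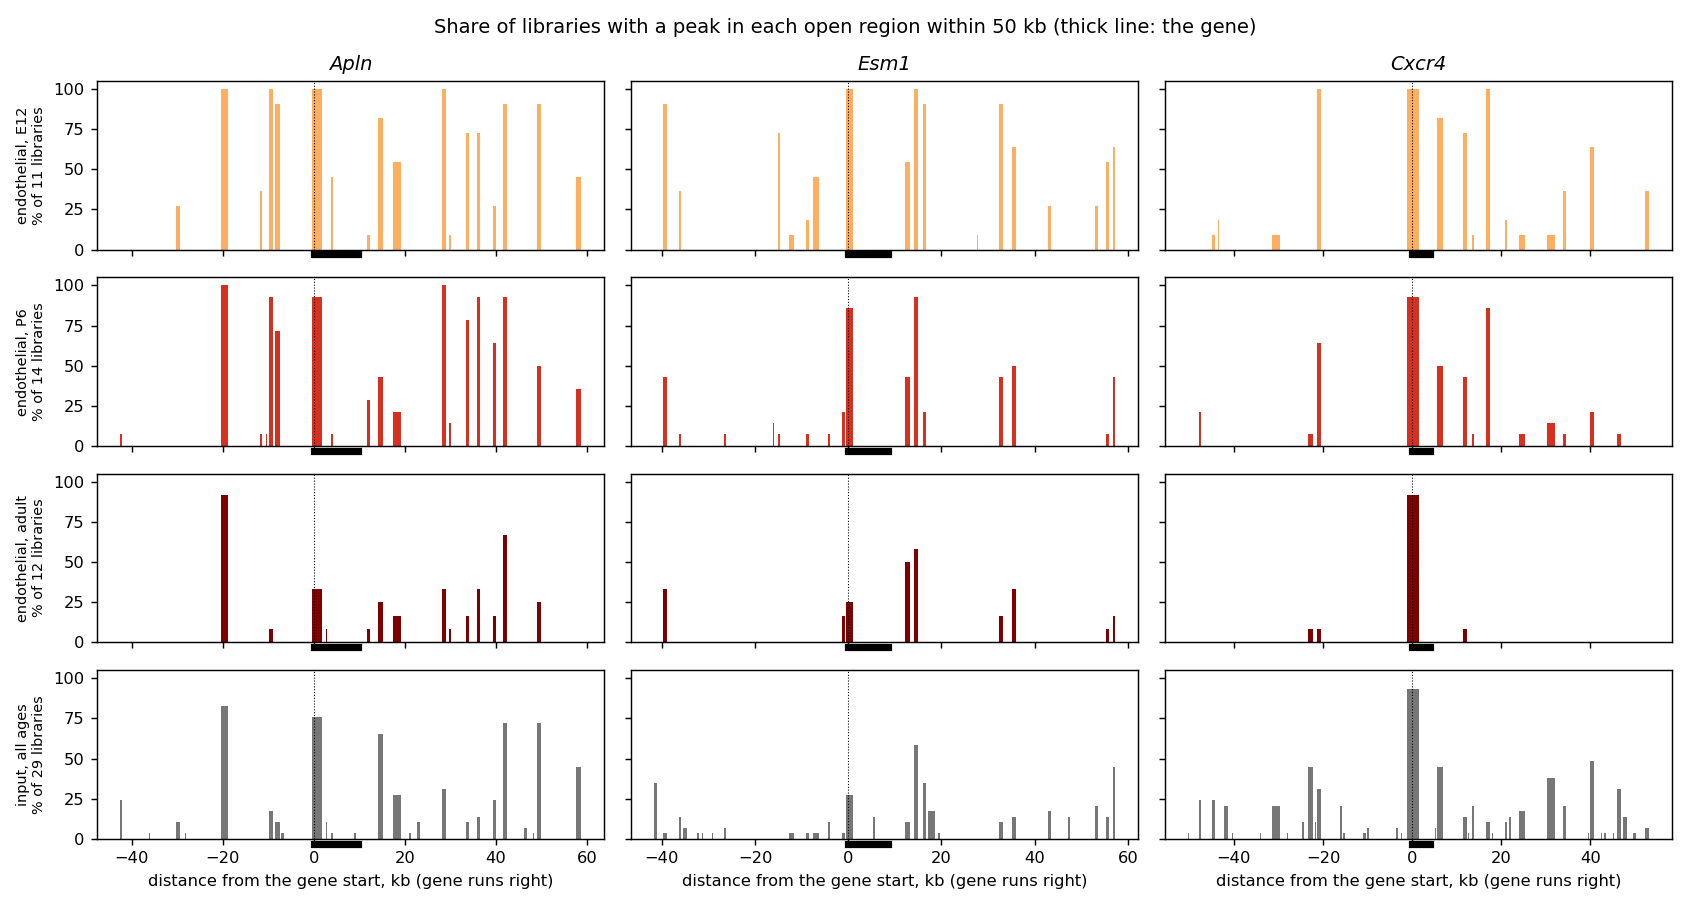
Share of libraries (vertical axis, percent) with a peak in each open region around Apln, Esm1 and Cxcr4, by distance from the gene start in kb with the gene running right (thick line), for endothelial libraries of E12, P6 and adult mice and for all input libraries. The Cxcr4 start keeps its bar in adults while the region past its end, in 23 of 25 young lists, has none.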

How the data were processed

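Single-cell libraries of 5 ages and 66 ATAC-seq libraries (37 endothelial, 29 input) were used. The single-cell files hold UMI counts per gene and barcode, which the authors made with Cell Ranger, per the submitters' processing notes. The ATAC-seq files are lists of broad peaks with a fold enrichment, called by the authors per library with MACS2 2.1.2, per the file headers, on reads aligned to mm10 with Bowtie2, per the submitters' processing notes. The fold enrichment was used only in alternatives, to set aside peaks under a fold of 4 and to rank peaks for lists of equal length. A list's length moves with what was called. RNA-seq tables were not used here.

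UMIs were pooled over endothelial cells of a library (gate in the text) and scaled to 1000000, with exact Poisson and binomial (Clopper-Pearson) intervals at the 95% level that cover counting error only, and a floor of 3 counts. With 1 library per age nothing was tested between ages. Peaks within 50 kb of protein-coding genes (RefSeq, GRCm38.p6) were divided by list length (pseudocount 0.5) and fitted over all 21883 genes with limma 3.58.1 in R 4.3.3, with a trend and robust variances and a mean for each organ, age and kind of nuclei. On simulated data with the P6 design, 80% of 100 genes changed 2-fold and 100% of 100 changed 3-fold were called, and 13 of 21683 unchanged ones. The simulated counts were Poisson draws around 1 rate per gene for all organs, with no further spread between libraries. The changed genes were taken from those with more peaks, so these shares need not hold for the real lists. The median correlation of deviations was -0.0035 between libraries of the same replicate number, taken across all organs, ages and kinds of nuclei, and 0.00096 between others. Endothelial and input libraries of the same organ, age and number were not looked at apart, so these values cannot decide whether such libraries were paired.

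All 8 genes and all partners are named, of other lists the 3 with the highest level and those that a count rests on (1 such gene is not reported here), and the 10 genes most like Apln and Aplnr. The 8 genes and all lists were chosen with earlier results of these data known. Alternatives covered the cell gate, doublets, thinning, the window, scaling, peak threshold and each library left out. Python 3.11.15 with numpy 2.4.6, scipy 1.17.1, pandas 2.3.3 and matplotlib 3.10.9 was used.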

Additional observations from a re-analysis of the deposited data

Results flagged for a closer look

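The heart endothelial E12 library 3 stood apart from the other 3 libraries of its group, with 3 peaks near Esm1 against 9 in each of the others, 5 near Angpt2 against 17 to 19, and 2 near Adm against 10 or 11. Its list was the shortest of the group. Only 2 groups had 4 libraries, and 18 sets of values were compared in them (8 genes and the length of the list in each). Chance alone flags about 1 in 20 such sets, and the 3 come from 1 library and are not independent of each other.

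Peaks near some genes differed in opposite directions between organs, with every library of 1 arm beyond every library of the other, and these differences between organs were not tested. For Aplnr, adult against P6 endothelial libraries differed by 0.86 in heart, 0.42 in kidney and 0.78 in lung on the log2 scale, and by -0.20 in liver. For Esm1, endothelial against input libraries at P6 differed by 0.46 in heart, 1.95 in kidney, 0.99 in liver and 0.92 in retina, and by -0.50 in lung. The adult values of Esm1 were 1.93 in kidney, 1.49 in liver and -1.02 in lung, and adult against P6 it differed by 0.47 in kidney, -0.83 in lung and -0.94 in retina. Angpt2 differed between endothelial and input at P6 by 0.98 in brain, 0.66 in retina and -0.24 in lung, and between adult and P6 by 1.00 in kidney, -0.26 in heart and -0.998 in retina. Vegfc differed at P6 by 0.86 in lung, -0.50 in heart and -0.65 in kidney, and between adult and P6 by 0.39 in heart, 1.30 in kidney and -1.75 in lung. Each of these values rests on 2 or 3 libraries per arm.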

How the results depend on the processing

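Of 288 log2 ratios of a gene between ages under other cell gates, doublet filters and totals, 191 kept within the counting interval and 97 did not. The direction turned in 12 and the fold of 2 was gained or lost in 6. None of the ratios past the fold of 2 changed direction; those that did were of Vegfc, Pgf, Esm1 and Angpt2, the last at -0.26 from E12.5 to E16.5 without cells that carry 2 cell cycle markers. With at most 5% mitochondrial UMIs Vegfc was at 0.55 from E16.5 to P8. Of 360 levels 204 stayed within the counting interval. Of 40 shares of cells, each cell thinned to 2000 UMIs, 34 moved on thinning to 1000, which by itself lowers the chance to detect a gene. Without cells with 2 markers of another type, globin genes included, 1 gene was lower and 3 higher from E12.5 to E16.5, with Cxcr4 added at 1.51, and 2 were lower from E16.5 to P8. Without cells that carry 2 cell cycle markers, an alternative chosen after seeing the data, 1 was higher from E12.5 to E16.5. With markers counted after thinning, 2, 1, 2 and 2 genes were higher in venous-marked cells from E9.5 to P8, and 3 in arterial-marked cells at E12.5 and in adults. With all UMIs, 8 pairs passed the ratio at E9.5 and 4 in adults. Of 224 differences in peaks under the alternatives other than leaving out a library, 161 kept direction and call, 8 lost the call, 18 gained it and 37 changed direction. The cause was not tested except where the alternative itself removes genes or peaks.

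With an equal number of the strongest peaks from each list, adult endothelial against input gave 1184 genes higher and 996 lower, adult against P6 gave 1232 and 648, and of the 8 genes 1 was lower at P6, 1 higher and 0 lower from P6 to adult, and 1 higher and 1 lower from E12 to P6. Angpt2 was then at -0.32 at P6, Cxcr4 at -0.23 and Pgf at 0.0534 in adults, and Angpt2 at -0.9997, Apln at -0.35 and Esm1 at 0.0738 from E12 to P6. With genes of a mean of at least 1 peak, which are fewer, 2228 were higher in adults and 2916 from P6 to adult. Without scaling by list length the counts were 183 higher and 4202 lower at P6, 176 and 6191 in adults, 24 and 10401 from P6 to adult and 13 and 2296 from E12 to P6, and of the 8 genes 0 were higher and 1 lower at P6, 1 and 1 in adults, and 7 lower from P6 to adult. Angpt2 was then at -0.31 and Pgf at -0.0552 at P6; Adm at -0.11, Angpt2 at -0.25, Apln at -0.12, Cxcr4 at -0.51 and Esm1 at -0.0272 in adults; Adm at -0.42, Angpt2 at -0.77, Aplnr at -0.61 and Vegfc at -0.82 from P6 to adult; and from E12 to P6 Adm at -0.27, Angpt2 at -0.35, Apln at -0.0481, Aplnr at -0.15, Cxcr4 at -0.47 and Pgf at -0.0575.

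With peaks of at least 4-fold enrichment, 1672 genes were higher and 695 lower in adults, 8519 and 646 from P6 to adult, 144 and 216 from E12 to P6, and 1 of the 8 genes was lower at P6. Angpt2 was at -0.00104, Pgf at 0.28 and Vegfc at -0.23 in adults, Angpt2 at -0.42, Aplnr at -0.0603, Esm1 at 0.21 and Vegfc at -0.0268 from P6 to adult, and Cxcr4 at -0.0887 from E12 to P6. With a window of 10 kb, 6209 genes and 4 of the 8 were higher in adults, 9699 genes and 1 of the 8 were higher from P6 to adult and 2 of the 8 lower. Adm was at -0.027 and Cxcr4 at 0.30 at P6, Cxcr4 at 0.11 from P6 to adult, and Adm at -0.0755, Angpt2 at -0.0186 and Esm1 at 0.16 from E12 to P6.

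Leaving out 1 library gave 2025 to 4665 genes higher in adults, lowest without brain input library 1, and 1 to 4 of the 8. From P6 to adult 0 to 3 of the 8 were lower. From E12 to P6 317 to 2093 genes were higher, lowest without heart P6 endothelial library 2 and highest without heart E12 endothelial library 3, 489 to 1184 were lower and 0 to 2 of the 8 were lower.

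A fit took the replicate number as a block across all organs, ages and kinds of nuclei, although whether libraries were paired is not settled. It gave 1832 genes higher and 1688 lower at P6, and 3709 and 1765 in adults. From P6 to adult it gave 5639 and 1318, and from E12 to P6 899 and 830. Esm1 was called in adults with the block, at 0.60, and no other call among the 8 genes changed.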

Other observations

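The share of a gene's UMIs that came from cells with many UMIs of it differed, and this share also rises with level and depth. Cells with at least 5 UMIs of the gene held 82.4% of the Apln UMIs at P8, at a mean of 6.45 UMIs per positive cell, and 4.46% at E9.5, at a mean of 1.39. For Aplnr at E12.5 that share was 86.3%, for Esm1 at E16.5 68.2%, although only 3.17% of cells held it, and for Adm at E16.5 58.4%. For Cxcr4 the share was lower, with 7.79% of its P8 UMIs in such cells and a mean of 1.55 per positive cell.

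The 7 adult endothelial cells with an Apln UMI had a median of 13063 UMIs against 4891 in the others, and 42.9% of them carried 2 markers of another cell type against 13.9%.

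The gene Esm1 had 0 UMIs in adult endothelial cells of the cortex, while its start had a peak in both adult kidney endothelial lists and in 0 of 2 adult brain ones.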
